A study of Homo sapiens with 6 samples.

Results

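The genes described here are 33 targets and regulators of p53, read as transcripts in SNU449 cells, a line derived from a human hepatocellular carcinoma. They were taken by symbol from a list that leaves out the cyclin-dependent kinase inhibitors and the BCL2 family. Each of the 33 matched 1 row among the 60589 genes of the expression table. The 2 groups, both taken at day 3, were siControl (control siRNA, n = 3 libraries) and siMAD2L1 (siRNA to MAD2L1, n = 3 libraries). MAD2L1 is the spindle checkpoint protein that holds back anaphase until chromosomes are attached, and the comparison asks which transcripts differ once its mRNA is reduced. No further allele or agent is given for either group. The labels do not say how many siRNA sequences were used, nor whether the 3 libraries of a group came from separate cultures, so a p-value here reflects library-to-library spread alone, which may be technical. SNU449 is a single tumour line, so the values describe that line alone.

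p53 is a transcription factor that is kept scarce by the ubiquitin ligase MDM2 and is stabilised by DNA damage and other stress. It binds a pair of short palindromic sites and switches on genes that stop the cell cycle, repair DNA, limit oxidative damage or kill the cell, and MDM2 is itself one of its targets. The pathway is often disabled in liver cancer. Several of its target genes also answer to other factors: SESN2 and GDF15, for example, are known to be induced through ATF4 in the integrated stress response.

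The pair of p53 sites could be read directly in the promoters of some members. RefSeq promoter windows (GRCh38.p14), which reach from 250 bases before to 50 bases after an annotated start, were at hand for 27 of the 33 genes. A p53 full site was counted where 2 p53 half-sites stood 0 or 1 base apart with at most 2 mismatches in all and none at the core C and G. Because the half-site is its own reverse complement, a match counts for both strands. Such a site was found in 4 genes, MDM2, FAS, AEN and DDB2. Counted by window it was in 5 of the 38 windows of the 27 genes and in 0.533% of all 35116 windows. A half-site without mismatch was in 8 of the 27 genes, AEN, DDB2, EI24, FAS, FDXR, RPS27L, SESN1 and PLK2, the member that fell. Counted by window it was in 8 of their 38 windows and in 6.63% of all windows. AEN, DDB2 and FAS had both kinds. The sites of MDM2, FAS, AEN, DDB2 and PLK2 are shown 5′ to 3′, with the site in capitals. Of these genes only PLK2 was called below, and whether their changes differed was not tested. The MDM2 stretch (chr12:68808878-68808987, plus strand) lies in none of the exons of GENCODE 29, and its site is 94 to 75 bases upstream of one of the gene's internal start sites. The FAS site is at chr10:88991309-88991328 (plus strand), 122 to 103 bases upstream of an internal start, where exons of FAS and of the opposite-strand gene ACTA2 overlap. The AEN site is at chr15:88621306-88621325 (plus strand), 34 to 15 bases upstream of the RefSeq start, and overlaps an exon of AEN in GENCODE 29. The DDB2 site is at chr11:47214979-47214999 (plus strand), 6 to 26 bases downstream of a start, in an exon. The PLK2 stretch is at chr5:58460204-58460223 (minus strand), with its half-site 132 to 123 bases upstream of a start, and overlaps a PLK2 exon.
MDM2: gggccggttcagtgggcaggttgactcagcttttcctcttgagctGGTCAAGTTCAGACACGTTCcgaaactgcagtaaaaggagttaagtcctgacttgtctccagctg
FAS: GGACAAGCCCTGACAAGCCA
AEN: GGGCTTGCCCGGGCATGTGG
DDB2: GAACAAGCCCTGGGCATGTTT
PLK2: ggacaAGACTTGCTTcccgg

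Of the genes called below as higher, SESN2, BTG1, TP53I3 and GDF15 had a window and held neither a full site nor a half-site in it; TNFRSF10A had no window. That says only that these letters are not in those windows. The ATF4-type element TGATGNAA (either strand) was in 1 member, PLK3 (1 of 38 member windows), and in 3.62% of all windows. The cAMP response element TGACGTCA was in 1 member, PPM1D (1 of 38 member windows), and in 1.85% of all windows.

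The values are TPM, so each library sums to the same total, levels can be compared between genes per unit of transcript length, and the depth of the libraries is unknown. MAD2L1 measured 14.5, 13.7 and 13.9 TPM in siControl and 4.47, 0.795 and 2.40 TPM in siMAD2L1 replicates 1, 2 and 3 (log2 fold change -2.22, adjusted p = 0.0105; 0.0597 without siControl replicate 1, 0.0547 without replicate 2 and 0.0572 without replicate 3). All siMAD2L1 titles name MAD2L1, whereas the treatment field reads siMAD2L2 for replicate 2 and siMAD2L3 for replicate 3. MAD2L2 measured 123, 154 and 138 TPM in siMAD2L1 against 138 to 150 TPM in siControl. On the second principal component (23.4% of the variance) siMAD2L1 replicate 1 scored 40.0 and replicates 2 and 3 scored -24.7 and -11.9. Values by library are therefore given for the members that the results turn on. Mitochondrially encoded transcripts took 15.2% to 15.4% of the TPM in siControl and 9.21% to 10.9% in siMAD2L1; their part in the results was not tested. The hepatocyte genes APOB and TTR were listed at 0 in all 6 libraries and ALB did not exceed 0.451 TPM. The 10 hepatocyte markers summed to 17.9 to 23.5 TPM in siControl and 8.21 to 13.8 TPM in siMAD2L1, with 2 of 4 tested, FGB and TF, lower. The 5 epithelial markers summed to 411 to 426 and 279 to 309 TPM, with KRT8 and KRT18 lower, and of 7 mesenchymal markers 4 were tested and 1 fell, COL1A2 (log2 fold change -0.74, adjusted p = 0.00187). COL1A1 (-0.44) and ACTA2 (-0.29) lay lower without overlap and were not called, and VIM, between 9128 and 11152 TPM, was not called either (0.19). Of 6 leukocyte markers CD3E was at 0 and PTPRC at most 0.06 TPM; 3 were tested and 1 rose, CD68 (log2 fold change 1.05, adjusted p = 0.00114). Their summed level was 69.7 to 77.2 TPM in siControl and 129 to 150 TPM in siMAD2L1, of which CD68 alone made up 63.1 to 69.8 and 125 to 145 TPM; CD14 lay lower without overlap and was not called (-0.89, adjusted p = 0.0851). All 4 endothelial markers lay below 1 TPM on average. The part of these marker levels in the results was not tested.

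Over the 33 genes, transcripts did not move in a shared direction. SESN2 and BTG1 rose 2.25-fold and 2.01-fold in siMAD2L1, GDF15, TNFRSF10A and TP53I3 rose by smaller amounts, and PLK2 fell. Of these genes only SESN2 and BTG1 stayed called with each library left out in turn. The TP53I3 call was lost in 17 of 21 alternatives. Other long-known p53 targets in the list, MDM2, CCNG1, ZMAT3, DDB2, XPC and FDXR, did not pass the test. Of the 33 members 31 reached a mean of 1 TPM and were tested; SESN3 and SPATA18 did not. Among the 31, 5 were called higher, beside a background of 3.55% of all 14790 genes tested, and 1 was called lower, beside 6.23% (limma, adjusted p under 0.05). The background calls were 525 higher and 921 lower, and 648 and 715 with upper-quartile scaling, 687 and 701 with quantile normalization, 774 and 613 after removal of a transcript-length trend, and 449 and 1234 when mitochondrial genes and the 20 highest were dropped before rescaling. The other 25 were not called. In 8 members every siMAD2L1 library lay above every siControl library, beside 11.3% of all tested genes, and in 5 every one lay below, beside 21.5%. The median log2 fold change was 0.03 over the 31 members and -0.08 over all tested genes, and 16 members had a positive and 15 a negative value. An unadjusted p under 0.05 was found for 7 of the 31 members (22.6%) and for 26.3% of all tested genes, the share to set beside the unadjusted counts below. The member median was -0.0136 under that rescaling, and 0.13 after quantile normalization. The count of members called higher was 2, 3 and 2 without siControl replicate 1, 2 or 3 and 5, 4 and 3 without siMAD2L1 replicate 1, 2 or 3; the count called lower was 0, 0 and 0 and then 1, 1 and 0.

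**Figure D1:**
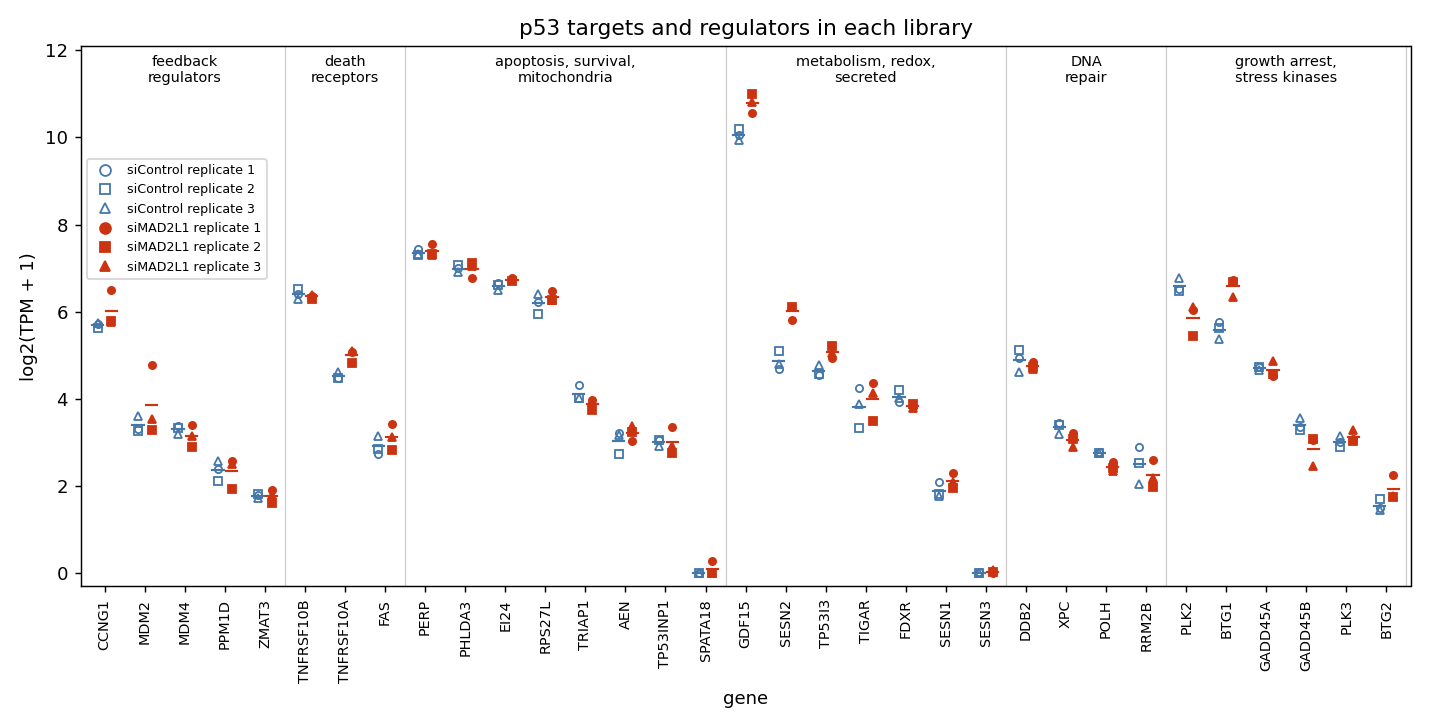
The plot shows log2(TPM + 1) of the 33 genes in each of the 6 libraries (open blue, siControl; filled red, siMAD2L1; marker shape, replicate; bars, group means), grouped by role and ordered by mean TPM. GDF15 is the highest gene of the set, SESN3 and SPATA18 lie at or near 0, and the MDM2 and CCNG1 points of siMAD2L1 replicate 1 stand above the other 5 libraries.

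**Figure D2:**
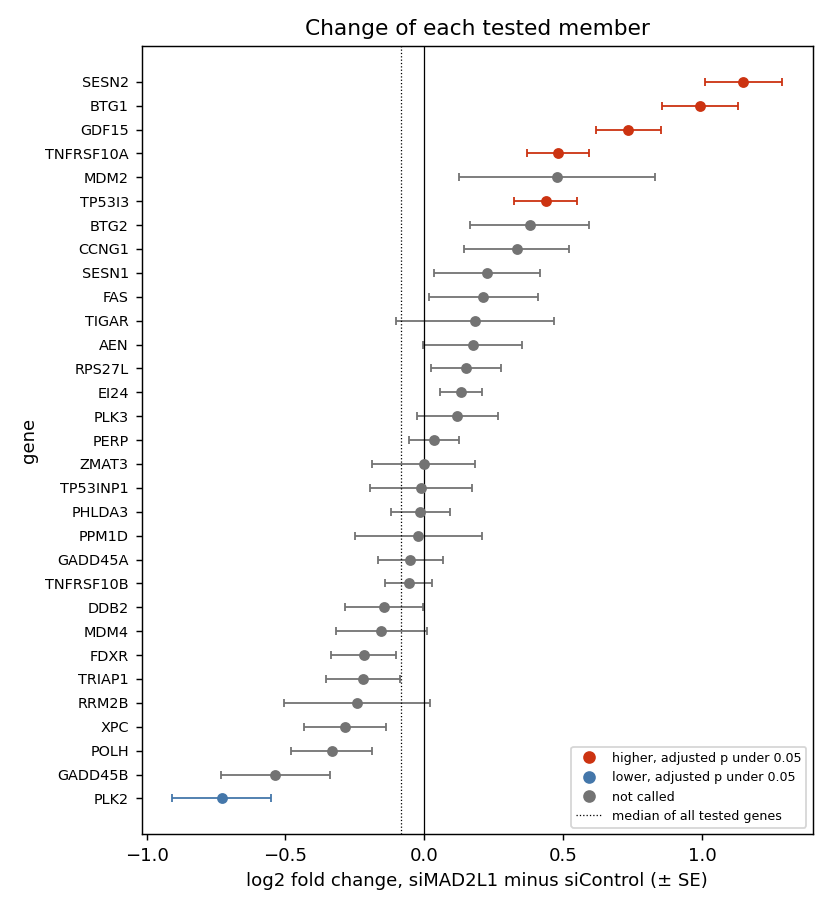
The plot shows the log2 fold change of each of the 31 tested genes (siMAD2L1 minus siControl, points; limma SE, bars), with the median of all tested genes as a dotted line. The 5 genes called higher are in red, PLK2 in blue, and the other 25 in grey lie on both sides of 0.

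None of the 5 feedback regulators of p53 was called (0 of 5 by limma, 0 at an unadjusted p under 0.05, and 0 with library weights or without a trend). MDM2, the ligase that marks p53 for degradation, measured 8.97, 8.55 and 11.2 TPM in siControl and 26.4, 8.79 and 10.7 TPM in siMAD2L1 replicates 1, 2 and 3. Replicate 1 was 2.47 times the higher of the other siMAD2L1 libraries, while replicates 2 and 3 lay inside the siControl range. The log2 fold change was 0.48 (SE 0.35, adjusted p = 0.436). It was 0.0255 without siMAD2L1 replicate 1 (adjusted p = 0.924), and replicate 1 by itself lay 1.38 above the siControl mean, a value of 1 library with no spread of its own. CCNG1, cyclin G1, which recruits a phosphatase to MDM2, was also highest in replicate 1, with 51.5, 48.2 and 52.6 TPM in siControl and 89.9, 54.4 and 53.9 TPM in siMAD2L1. Its groups did not overlap, but replicates 2 and 3 exceeded the highest siControl library by under 2 TPM. The log2 fold change was 0.33 (SE 0.19, adjusted p = 0.308); it was 0.0918 without siMAD2L1 replicate 1 (adjusted p = 0.426) and replicate 1 by itself lay 0.81 above the siControl mean.

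The other feedback genes had overlapping groups. MDM4, the MDM2 relative that masks the activation domain of p53, measured 8.14 to 9.39 TPM in siControl and 9.56, 6.42 and 7.88 TPM in siMAD2L1 (log2 fold change -0.15, adjusted p = 0.596). PPM1D, the phosphatase WIP1 that reverses damage signalling, had means of 4.19 ± 0.804 and 4.17 ± 1.18 TPM (SD, n = 3 each). ZMAT3, an RNA-binding zinc finger protein, had means of 2.43 ± 0.128 and 2.44 ± 0.366 TPM (SD, n = 3 each). For PPM1D and ZMAT3 the standard errors of the log2 difference were 0.23 and 0.19, so differences of that size are within the error.

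Of the 3 death receptors 1 rose, beside 3.55% called higher over all tested genes. TNFRSF10A, which encodes the TRAIL receptor DR4, measured 21.2, 21.4 and 23.5 TPM in siControl and 33.0, 27.5 and 33.1 TPM in siMAD2L1. All 3 siMAD2L1 libraries were above the siControl libraries, at a ratio of means of 1.42. The log2 fold change was 0.48 (SE 0.11, adjusted p = 0.0359). The call ended without siControl replicate 1, 2 or 3 (adjusted p = 0.143, 0.114 and 0.0918) and without siMAD2L1 replicate 3 (0.119), at log2 fold changes of 0.44 to 0.53, and adjusted p ran from 0.00217 to 0.143 over the alternatives. TNFRSF10B, the other signalling TRAIL receptor (DR5), was the more abundant of the pair and did not pass, with 84.4, 90.6 and 77.7 TPM in siControl and 82.0, 77.7 and 82.9 TPM in siMAD2L1 (log2 fold change -0.06, SE 0.08, adjusted p = 0.717). The difference between both receptors was not tested. FAS, the receptor for FAS ligand, measured 5.71, 6.25 and 7.85 TPM in siControl and 9.78, 6.06 and 7.79 TPM in siMAD2L1, highest in replicate 1 (log2 fold change 0.21, SE 0.20, adjusted p = 0.538). Exons of 13 members overlap another annotated gene, among them FAS (ACTA2), MDM2 (CPM), TP53I3 (FAM228B), TNFRSF10A (TNFRSF10A-AS1) and BTG1 (LINC01619, on its own strand). The strand setting is not known here, so reads of such pairs may not be told apart and these values are uncertain to that extent.

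Genes of apoptosis, survival and mitochondrial upkeep had log2 fold changes from -0.22 to 0.17. None of the 7 tested was called by limma, none had an unadjusted p under 0.05, and 0 were called with library weights or without a trend. PERP, a membrane protein of desmosomes and a p53 apoptosis effector, was the highest, with 173, 156 and 159 TPM in siControl and 186, 159 and 156 TPM in siMAD2L1. PHLDA3, an inhibitor of AKT, measured 128, 133 and 119 TPM in siControl and 108, 138 and 131 TPM in siMAD2L1. In both genes the groups overlapped, with log2 fold changes of 0.03 (SE 0.09) and -0.0141 (SE 0.11). EI24, an endoplasmic reticulum protein, measured 101, 97.6 and 90.1 TPM in siControl and 108, 103 and 105 TPM in siMAD2L1. Its groups were apart by under 3 TPM (log2 fold change 0.13, SE 0.08, adjusted p = 0.319). TRIAP1, a mitochondrial lipid transfer protein that restrains apoptosis, measured 18.9, 15.1 and 15.2 TPM and then 14.8, 12.4 and 14.5 TPM, again without overlap (log2 fold change -0.22, adjusted p = 0.340). RPS27L, a ribosomal protein paralogue, had means of 72.7 ± 11.2 and 80.3 ± 7.38 TPM, AEN, an apoptosis-enhancing nuclease, 7.34 ± 1.42 and 8.35 ± 1.08 TPM, and TP53INP1, an autophagy and cell death protein, 7.12 ± 0.455 and 7.18 ± 1.86 TPM (SD, n = 3 each). TP53INP1 was another gene with its highest value, 9.28 TPM, in siMAD2L1 replicate 1, against 5.73 and 6.54 TPM in replicates 2 and 3. SPATA18, which takes part in mitochondrial quality control, was listed at 0 in 5 libraries and at 0.212 TPM in siMAD2L1 replicate 1.

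The metabolic and secreted targets held 3 of the 5 rises, among 6 tested, beside 3.55% called higher over all tested genes. The role groups were chosen with earlier results of these data known. SESN2, a sestrin that senses leucine and lowers mTORC1 activity, measured 24.8, 33.5 and 26.8 TPM in siControl and 55.1, 68.6 and 68.3 TPM in siMAD2L1. The lowest siMAD2L1 library was 1.64 times the highest siControl library, and the ratio of means was 2.25. The log2 fold change of 1.15 (SE 0.14, adjusted p = 0.00395) was the largest of the set. It stayed called with each library left out in turn, at 1.06 to 1.27 and adjusted p of 0.00321 to 0.0327. The other sestrins were not called. SESN1, a long-known p53 target, measured 3.28, 2.55 and 2.40 TPM and then 3.96, 2.92 and 3.24 TPM, with overlapping groups (log2 fold change 0.23, SE 0.19, adjusted p = 0.50). SESN3, a sestrin known mainly as a FOXO target, did not exceed 0.048 TPM in any library. Whether SESN2 and SESN1 differed in their change was not tested.

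GDF15, a secreted stress cytokine of the TGF-beta family, was the most abundant member, with 1061, 1172 and 982 TPM in siControl and 1521, 2045 and 1813 TPM in siMAD2L1. The groups did not overlap, and siMAD2L1 replicate 1, the library with the most MDM2, was the lowest of its group for GDF15. The log2 fold change was 0.73 (SE 0.12, adjusted p = 0.0101), with adjusted p of 0.0609 without siControl replicate 1 and 0.0576 without siControl replicate 3 and a range of 0.000259 to 0.0609 over the alternatives. TP53I3, a quinone oxidoreductase linked to reactive oxygen, measured 22.6, 22.7 and 26.4 TPM in siControl and 29.9, 36.0 and 32.4 TPM in siMAD2L1. Its call was marginal (log2 fold change 0.44, SE 0.11, adjusted p = 0.0498). In 17 of 21 alternatives it was lost, among them all leave-outs but that of siMAD2L1 replicate 1 (adjusted p = 0.182, 0.147 and 0.0894 without siControl replicate 1, 2 or 3, and 0.128 and 0.125 without siMAD2L1 replicate 2 or 3), with adjusted p from 0.00459 to 0.198. FDXR, the ferredoxin reductase of mitochondria, lay lower without overlap and was not called, with 14.3, 17.5 and 15.2 TPM against 13.1, 13.8 and 12.9 TPM (log2 fold change -0.22, adjusted p = 0.286). TIGAR, a phosphatase that lowers glycolytic flux, varied as much within a group as between them, from 9.06 to 18.1 TPM in siControl and from 10.3 to 19.7 TPM in siMAD2L1.

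The DNA repair members all had negative values, where 40.1% of all tested genes had a positive one. None of the 4 members was called (0 of 4 by limma, 0 at an unadjusted p under 0.05, 0 without a trend and 2, XPC and POLH, with library weights). DDB2, which finds ultraviolet lesions in chromatin, was the highest, with 29.9, 34.0 and 23.7 TPM in siControl and 27.9, 25.6 and 24.7 TPM in siMAD2L1 (log2 fold change -0.15, SE 0.14, adjusted p = 0.553). XPC, the damage sensor of nucleotide excision repair, measured 9.92, 9.59 and 8.20 TPM and then 8.27, 7.51 and 6.46 TPM (log2 fold change -0.29, SE 0.15, adjusted p = 0.263). The groups overlapped for both genes. POLH, the translesion polymerase eta, was tightly grouped in siControl at 5.92, 5.76 and 5.78 TPM and lower in each siMAD2L1 library, at 4.85, 4.35 and 4.07 TPM (log2 fold change -0.33, SE 0.15, adjusted p = 0.195). RRM2B, the p53-inducible ribonucleotide reductase subunit, had means of 4.81 ± 1.67 and 3.85 ± 1.07 TPM (SD, n = 3 each), with overlapping groups.

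Growth arrest genes and stress kinases held a rise and the single fall, among 6 tested. Over all tested genes 3.55% were called higher and 6.23% lower. BTG1, an antiproliferative protein that binds the CCR4-NOT deadenylase, measured 53.2, 48.8 and 40.7 TPM in siControl and 105, 102 and 80.4 TPM in siMAD2L1. The ratio of means was 2.01, and the lowest siMAD2L1 library was 1.51 times the highest siControl library. Its log2 fold change was 0.99 (SE 0.14, adjusted p = 0.00623). The call held in all 21 alternatives, at 0.77 to 1.14 and adjusted p of 0.00203 to 0.0359. BTG2, its paralogue and the better known p53 target, was much scarcer, with 1.85, 2.24 and 1.72 TPM in siControl and 3.75, 2.39 and 2.43 TPM in siMAD2L1. The groups of BTG2 did not overlap, with replicate 1 again the highest (log2 fold change 0.38, SE 0.21, adjusted p = 0.306; 0.22 without siMAD2L1 replicate 1).

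PLK2, a polo-like kinase of centriole duplication and stress, measured 91.2, 88.0 and 108 TPM in siControl and 64.8, 42.3 and 67.6 TPM in siMAD2L1, without overlap and at a ratio of means of 0.609. The log2 fold change was -0.73 (SE 0.18, adjusted p = 0.0420). It lost its call without siControl replicate 1, 2 or 3 (adjusted p = 0.125, 0.104 and 0.151) and without siMAD2L1 replicate 3 (0.0608), over a range of 0.0147 to 0.151. PLK3, its relative, did not pass, at 7.13 ± 0.732 and 7.83 ± 0.876 TPM (SD, n = 3 each; log2 fold change 0.12). GADD45B, a stress protein that acts on MAP kinase signalling, measured 9.26, 8.78 and 10.7 TPM and then 7.33, 7.43 and 4.50 TPM. Its groups did not overlap, yet the gene was not called (log2 fold change -0.54, SE 0.20, adjusted p = 0.131; called with library weights, at -0.83 and adjusted p = 0.00574). GADD45A, the damage-induced family member that inhibits CDK1, measured 25.6, 25.4 and 24.2 TPM in siControl against 22.1, 22.7 and 28.1 TPM (log2 fold change -0.05, SE 0.12, adjusted p = 0.828).

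MDM2, CCNG1, BTG2, FAS and TP53INP1 each had their highest value of the 6 libraries in siMAD2L1 replicate 1. In that library, 18 of the 31 members (58.1%) lay above all siControl libraries, against 38.2% of all tested genes. In replicate 2 the count was 10 (32.3%, against 21.9%) and in replicate 3 it was 11 (35.5%, against 23.5%). Below all siControl libraries lay 7 members (22.6%, against 34% of all tested genes) in replicate 1. That count was 13 (41.9%, against 49.6%) in replicate 2 and 8 (25.8%, against 46.4%) in replicate 3. The median difference from the siControl mean was 0.17 over members and 0.02 over all tested genes in replicate 1, -0.10 and -0.15 in replicate 2, and 0.09 and -0.12 in replicate 3. Replicate 1 was the highest of all 6 libraries for 14 members (45.2%), as it was for 30.3% of all tested genes. Among the siMAD2L1 libraries alone it was the highest for 19 members (61.3%), against 53.2% of all tested genes. MDM2 was the 1 member at which replicate 1 exceeded both other siMAD2L1 libraries by at least 1 log2 unit, as did 226 of all 14790 genes (1.53%), and with CCNG1 there were 2 at a margin of 0.5 (14.5% of all genes). Replicate 1 also kept the most MAD2L1 of its group, 4.47 TPM. Of the genes with a full site above, MDM2 and FAS were highest of the 6 libraries there and AEN and DDB2 were not, at 7.23 and 27.9 TPM. For the genes that rose, replicate 1 was the lowest siMAD2L1 library for SESN2, GDF15 and TP53I3 and the highest for BTG1. For TNFRSF10A it lay between replicates 2 and 3, at 33.0 TPM against 27.5 and 33.1 TPM. What sets replicate 1 apart was not tested.

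**Figure D3:**
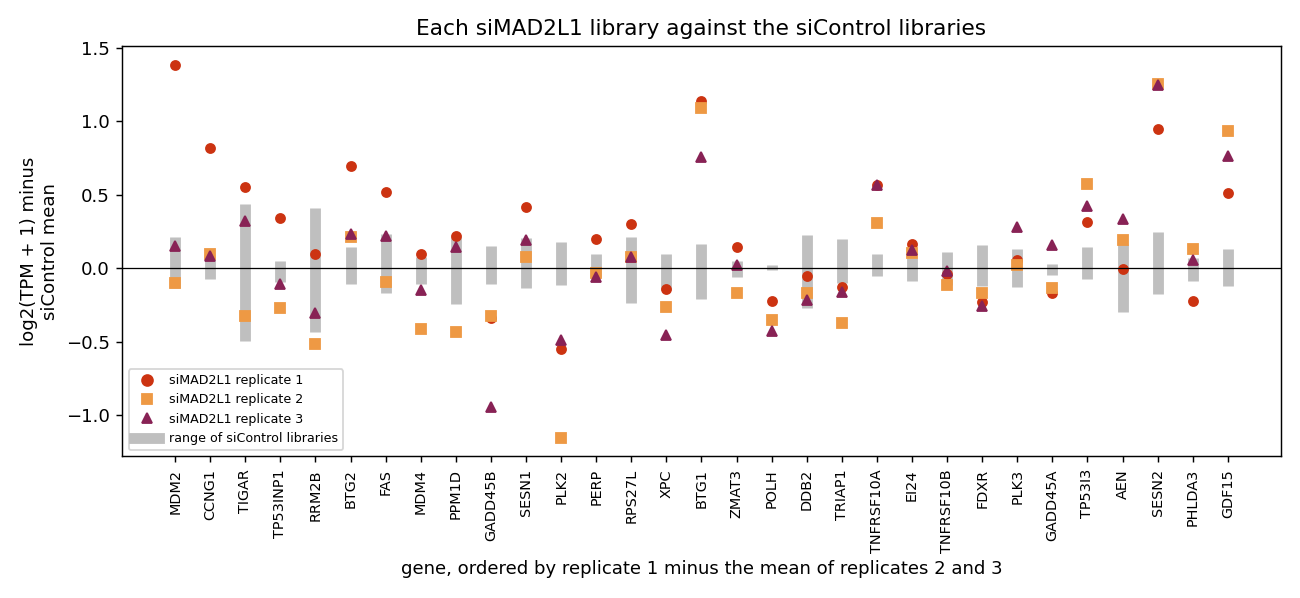
The plot shows, for each of the 31 tested genes, log2(TPM + 1) of the 3 siMAD2L1 libraries (points) minus the siControl mean, with the range of the siControl libraries as a grey bar. Genes are ordered by replicate 1 minus the mean of replicates 2 and 3. MDM2 and CCNG1 at the left stand out in replicate 1 alone, whereas the points of BTG1, SESN2 and GDF15 lie above the siControl range in all 3 libraries.

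Core genes of the pathway and its upstream regulators gave 1 rise and 1 fall among 23 tested of 24 genes (median log2 fold change -0.05). Those counts stand beside 3.55% called higher and 6.23% called lower over all tested genes. TP53BP2, which encodes the p53 cofactor ASPP2, rose from 49.9, 54.7 and 47.8 TPM to 123, 77.0 and 87.2 TPM (0.87, adjusted p = 0.0172), with adjusted p of 0.0788, 0.0593 and 0.0819 without siControl replicate 1, 2 or 3 and 0.052 without siMAD2L1 replicate 3. TP73, a p53 family member, fell from 3.48, 4.07 and 3.90 TPM to 1.92, 1.40 and 2.11 TPM (-0.78, adjusted p = 0.0407), and lost its call in each leave-out except that of siMAD2L1 replicate 1 (adjusted p up to 0.134).

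A further list of 34 p53 targets outside the members, 29 of them tested, gave 4 rises and 3 falls at a median of 0.03. Over all tested genes 3.55% were called higher and 6.23% lower. TNFRSF10D, a decoy receptor for TRAIL, rose from 27.9, 27.0 and 27.3 TPM to 66.6, 52.3 and 48.7 TPM (0.99, adjusted p = 0.00457). LIF, a cytokine (0.83, adjusted p = 0.00211), NINJ1, which ruptures the membrane of dying cells (0.77, adjusted p = 0.00661), and SERTAD1, a regulator of CDK4 (0.70, adjusted p = 0.0155), also rose. SERTAD1 lost its call in each leave-out except that of siMAD2L1 replicate 1, with adjusted p of 0.0813, 0.0637 and 0.0576 without siControl replicate 1, 2 or 3 and of 0.0512 and 0.0636 without siMAD2L1 replicate 2 or 3. The 3 that fell, CYFIP2 (-0.54), FBXO22 (-0.53) and ABHD4 (-0.45), are named after their values were seen.

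Of the 4 cell cycle and BCL2 family targets 1 was called higher and 1 lower, beside 3.55% and 6.23% of all tested genes. CDKN1A, which encodes p21, measured 121, 130 and 114 TPM in siControl and 275, 328 and 307 TPM in siMAD2L1 (1.31, adjusted p = 0.000688), and like SESN2 and GDF15 was lowest in replicate 1 of its group. PMAIP1, the BH3 protein NOXA, fell from 6.49, 5.97 and 8.95 TPM to 3.82, 2.25 and 3.43 TPM (-0.97, adjusted p = 0.0326), and its call ended in each leave-out but that of siMAD2L1 replicate 1 (adjusted p up to 0.128; up to 0.134 over all alternatives). BBC3, which encodes PUMA (0.42, adjusted p = 0.0595), and BAX (-0.21, adjusted p = 0.141) did not pass, though neither pair of groups overlapped. Over all tested genes the groups did not overlap in 11.3% with siMAD2L1 higher and in 21.5% with siMAD2L1 lower. BBC3 was called higher in 5 of 21 alternatives, among them quantile normalization and library weights. Its adjusted p ran from 0.00705 to 0.217 over the alternatives.

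The ATF4 list is given because SESN2 and GDF15 are also known ATF4-linked genes. Of its 20 genes 4 rose and 3 fell, beside 3.55% and 6.23% of all tested genes, at a list median of -0.11. In 4 genes the groups did not overlap with siMAD2L1 higher, and in 7 with siMAD2L1 lower. Those shares were 11.3% and 21.5% over all tested genes. ATF4 mRNA was not called, at 429 to 464 TPM in siControl and 447 to 476 TPM in siMAD2L1 (log2 fold change 0.04, adjusted p = 0.713). ATF3, a stress-induced transcription factor, rose (1.01, adjusted p = 0.00668), as did STC2, a secreted glycoprotein (0.47, adjusted p = 0.00753; 0.0574 without siControl replicate 1), and the transcription factor CEBPB (0.47, adjusted p = 0.0212). The serine synthesis gene PHGDH fell (-0.52, adjusted p = 0.0109; 0.0672 and 0.0522 without siControl replicate 1 or 2). CEBPB lost its call in each leave-out except that of siMAD2L1 replicate 1 (adjusted p from 0.0653 to 0.0939). The other called genes of the list are named after their values were seen. VLDLR rose (0.40, adjusted p = 0.0328), and ASNS (-0.45, adjusted p = 0.0251) and PSAT1 (-0.41, adjusted p = 0.0469) fell. They were not followed through the alternatives. A part of ATF4 or of any other factor in the changes of SESN2 and GDF15 was not tested.

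**Figure D4:**
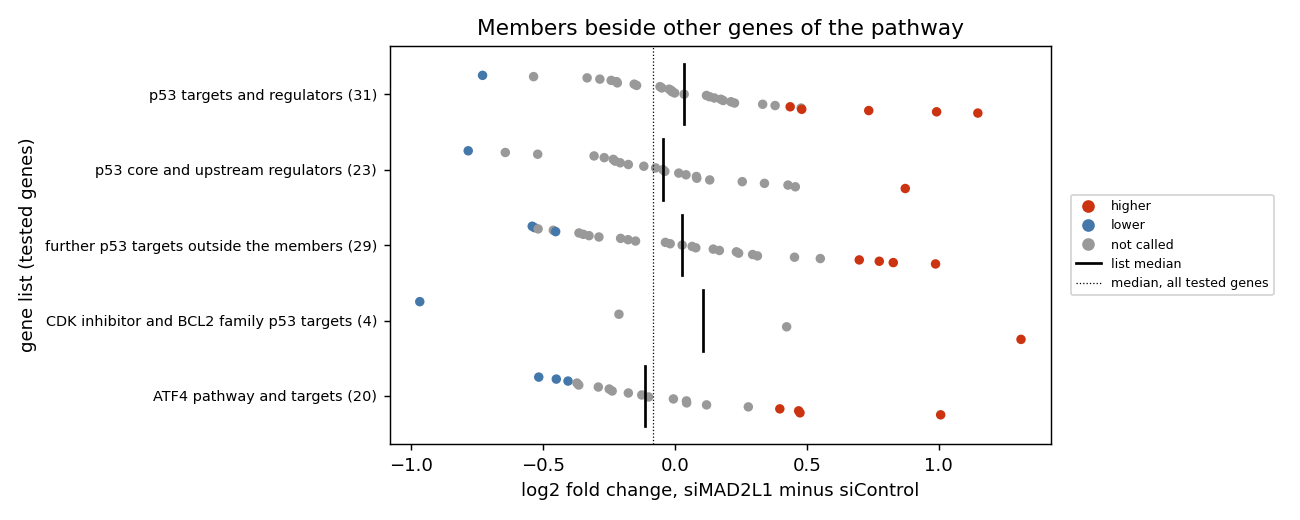
The plot shows the log2 fold change of each tested gene (points) in the p53 targets and regulators and in 4 lists of related genes, with list medians as black bars and the median of all tested genes as a dotted line. In all 5 rows called genes lie on both sides of 0 and the medians lie between -0.11 and 0.11.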

How the data were processed

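RNA from 6 SNU449 libraries was compared, 3 siControl against 3 siMAD2L1, grouped by title. The deposited values are TPM, 1 column per library; per the submitters' processing notes fastp, HISAT2, DESeq2 1.16.1 and the build hg38 were used. For the read counter, annotation, strand setting and conversion to TPM, the entry is: not given in the sources used here. Per the file headers, identifiers include transcript assembly names, joined to 9 of the 33 members, so those values may cover merged models. Depth is unknown, so no counting intervals are given.

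Values were taken as log2(TPM + 1), which understates changes of low genes; genes with a mean of at least 1 TPM over 6 libraries were fitted with limma 3.58.1 (trend, no covariates) in R 4.3.3, and p-values were Benjamini-Hochberg adjusted over all 14790 genes, with calls under 0.05. SE are limma's moderated ones. An exact two-sided permutation test of 3 against 3 libraries cannot go below 0.1 and is not quoted for single genes. On 10 simulated datasets of this comparison (14790 genes) 25.2% of changes of 0.5 log2 units, 80.0% of 1, 97.0% of 1.5 and 99.4% of 2 were recovered, with 6.1% false calls; independent noise was simulated and low genes were not changed. Gene positions, exons and overlaps came from GENCODE 29 (GRCh38), promoters from RefSeq (GRCh38.p14).

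The members, role groups, 4 pathway lists and marker lists were chosen with earlier results of these data known. Described genes were called members, members whose groups did not overlap, the 2 most abundant of each role group, the remaining members by mean or range, and up to 4 called genes of each further list. Called genes beyond that rule were named after their values were seen. Each library was left out in turn, and siMAD2L1 replicate 1 was set alone against siControl. Also tried were other pseudocounts (0.1, 0.5) and filters (none, 5 TPM), upper-quartile, quantile and reduced-gene scaling (mitochondrial genes and the 20 highest dropped), limma with library weights, robust variance or no trend, a replicate block, and a stricter threshold of 0.01. Rescaling over protein-coding genes and removal of a transcript-length trend were chosen after seeing the data. Some genes of the lists are counted but not reported singly here.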

Additional observations from a re-analysis of the deposited data

How the results depend on the processing

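The called members kept their sign in all 21 alternatives. Leaving out 1 library gave 138 to 716 genes called higher and 188 to 1706 called lower (525 and 921 in full), and 2 to 5 members higher and 0 to 1 lower. Without a filter 267 genes were higher and 460 lower (members 3 and 0), without a trend 297 were higher (members 3 and 0), with library weights 1514 were higher and 3346 lower (members lower 4), and at an adjusted p of 0.01 154 were higher and 205 lower (members 2 and 0). Replicate 1 alone against siControl gave 555 lower, with 3 members higher, which were BTG1, MDM2 and CCNG1, and 0 lower; here the lone library is assumed to vary like the controls, and it was looked at because it stands apart, so these calls support nothing. SESN2 was not called in that setting (0.94, adjusted p = 0.0503). Same-numbered libraries did not deviate together (correlations 0.019, 0.00898 and 0.0631), so the replicate numbers were not taken as pairs; with the replicate block 336 genes were higher and 532 lower, and 3 members higher. The share of lower calls was 63.7%, and 52.5% with upper-quartile scaling, 50.5% with quantile normalization, 73.3% with mitochondrial genes and the 20 highest dropped and 44.2%, with 613 lower, after removal of a transcript-length trend; in these 4 settings 4 to 5 members were higher and 1 lower. The cause of these shifts was not tested. TPM do not show the depth behind low members such as BTG2, ZMAT3 and SESN1.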
